A study of Mus musculus with 7 samples.

Results

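Hsd11b1, the enzyme that regenerates active glucocorticoid inside cells, was examined together with 8 genes of the same hormone axis in mammary glands of mice fed conjugated linoleic acid (CLA). The 9 genes were Hsd11b1, Hsd11b2, H6pd, Nr3c1, Nr3c2, Fkbp5, Tsc22d3, Sgk1 and Zbtb16, of 18193 genes with a probe set of their own. They were represented by 21 of the 34945 probe sets that carried 1 gene symbol. Hsd11b1 was selected on its difference between the diets on these same arrays, so its diet values are a description and carry no test. The other 8 were taken for their known roles in glucocorticoid activation, reception and response, with earlier results of these arrays known. For each gene the probe set with the highest mean log2 signal stood for the gene, and the others are given beside it.

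All animals were virgin female mice of the strain FVB/PyV-Mt, which carry the polyoma virus middle T oncogene, a driver of mammary tumours. CLA is a mixture of linoleic acid isomers with conjugated double bonds. The CLA group (4 arrays) ate chow with 1% CLA for 4 weeks, and the control group (3 arrays) ate AIN93G chow for the same time. Glands were taken at 8 weeks of age, and every animal, controls included, carried the oncogene. The study put 6 mice on CLA chow and 5 on control chow. The sources used here do not name the promoter that drives the oncogene.

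Glucocorticoids are steroid hormones of the adrenal cortex that act through the glucocorticoid receptor, a transcription factor encoded by Nr3c1, and also through the mineralocorticoid receptor, encoded by Nr3c2. In rodents the active hormone is corticosterone. The enzyme 11β-HSD1 (Hsd11b1), in the endoplasmic reticulum, turns inactive 11-dehydrocorticosterone back into corticosterone, with NADPH that H6pd, hexose-6-phosphate dehydrogenase, makes there. The enzyme 11β-HSD2 (Hsd11b2) runs the opposite reaction and inactivates the hormone. Adipose tissue and liver are rich in 11β-HSD1, and the mammary gland of a virgin mouse lies within a fat pad. The occupied receptor induces Fkbp5, Tsc22d3, Sgk1 and Zbtb16 in many cell types.

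The values were MAS5 signals, a linear measure of hybridisation intensity, with a trimmed mean of 500 on each array. Luminal epithelial transcripts were present on every array, with a summed signal of 145000 to 151600 in CLA glands and 132400 to 166800 in control glands over 16 of 16 listed markers, Krt8, Krt18 and Epcam among them. White adipocyte transcripts summed to 23860 to 51450 in CLA glands, with the highest sum on CLA replicate 4, against 63330 to 78190 in control glands. Skeletal muscle transcripts summed to 20520, 1116, 3249 and 1137 in CLA glands, against 13930, 128600 and 22430 in control glands. The 3′ to 5′ signal ratio of Actb, which rises as RNA breaks down, was 2.78 on CLA replicate 3 and 1.41 to 1.65 on the other CLA arrays, against 1.45 to 1.88 on control arrays. In bulk tissue, fewer cells of a type and less RNA per cell cannot be told apart.

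Promoter windows of RefSeq on GRCm38.p6, from 250 bases before to 50 bases after a gene's start, were found for 6 of the 9 genes, 13 windows in all. The windows of Hsd11b1 and Sgk1 are shown because the first belongs to the gene with the largest diet difference and the second held the letters of a full glucocorticoid receptor site. In the Hsd11b1 window, chr1:193242311-193242610 on the minus strand, capitals mark the bases from the start onward. In the Sgk1 window that held it, chr10:21993640-21993939 on the plus strand, capitals mark the palindrome.
Hsd11b1: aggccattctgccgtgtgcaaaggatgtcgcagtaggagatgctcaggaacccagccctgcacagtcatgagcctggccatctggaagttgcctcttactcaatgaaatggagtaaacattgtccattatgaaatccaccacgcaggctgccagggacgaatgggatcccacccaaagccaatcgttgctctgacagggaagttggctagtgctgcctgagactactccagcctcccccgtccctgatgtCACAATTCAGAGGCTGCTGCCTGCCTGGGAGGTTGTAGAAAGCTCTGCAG
Sgk1: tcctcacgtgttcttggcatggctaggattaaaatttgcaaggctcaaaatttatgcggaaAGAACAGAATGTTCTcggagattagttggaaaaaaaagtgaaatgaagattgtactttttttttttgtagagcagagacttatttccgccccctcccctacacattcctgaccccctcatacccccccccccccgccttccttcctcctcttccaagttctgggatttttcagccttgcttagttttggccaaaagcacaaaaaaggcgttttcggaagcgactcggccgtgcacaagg
The palindrome searched was AGAACA followed, after any 3 bases, by TGTTCT. Sgk1 has 6 of the 13 windows, for 6 annotated starts, and the palindrome was in the 1 shown, from 189 to 175 bases before its start. It was in 3 of 32851 windows of the table (0.00913%), 1 of them this Sgk1 window, and in 0 of 25 windows of further glucocorticoid targets. A single arm of the palindrome, TGTTCT on either strand, was in 5 of the 13 member windows, those of 3 genes. It was in 4 of the 25 windows of further targets and in 19% of all windows. Letters bound by C/EBP factors, TTGC and AA with any 2 bases between them, were in 3 of the 13 member windows, both strands searched. They were in 4 of the 25 windows of further targets and in 10.8% of all windows. The Hsd11b1 window matched none of these letters.

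Hsd11b1 signal was lower in every CLA gland than in every control gland. It was 403.5, 361.6, 375.3 and 593.6 on CLA replicates 1 to 4, against 1046, 1122 and 1035 on control replicates 1 to 3. The 3 control values lay close together, and CLA replicate 4 was the highest of the CLA arrays. The mean was 434 ± 108 (SD, n = 4) in CLA glands and 1068 ± 47.0 (SD, n = 3) in control glands, and the geometric mean was 2.51-fold lower with CLA. The log2 difference, CLA minus control, was -1.33 ± 0.20 (SE), with a 95% interval of -1.77 to -0.89 that makes no allowance for the gene's selection. It was -1.38 between the pair of arrays whose title numbers start with 27, CLA replicate 1 and control replicate 1, and -1.32 among the other 5 arrays, whose title numbers start with 28. Across all genes all CLA arrays lay below all control arrays in 2.67% and above them in 2.64%, and Hsd11b1, chosen for this difference, was the 1 member of either set.

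**Figure D1:**
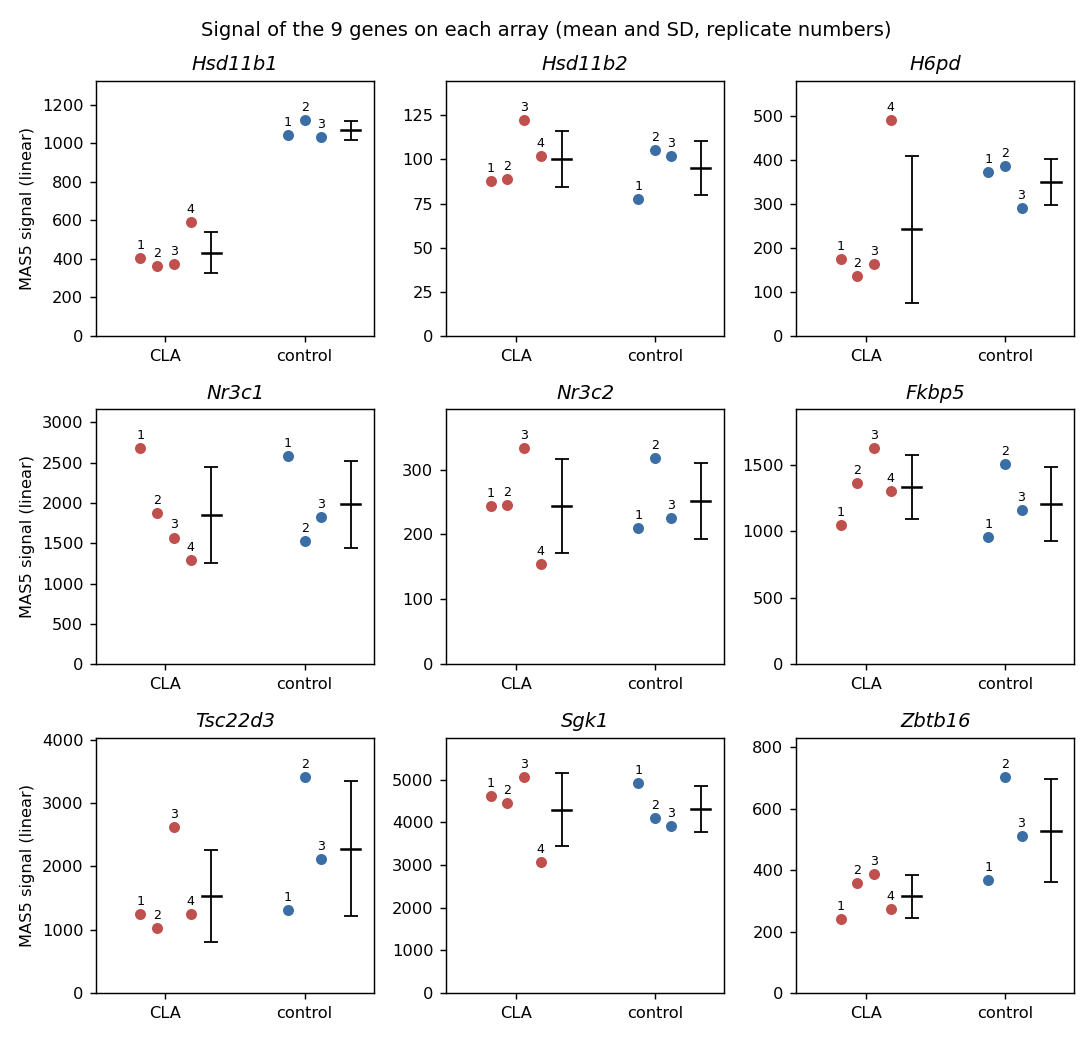
MAS5 signal (linear, y axis from 0) of the 9 genes on each array, CLA glands in red on the left and control glands in blue on the right, with replicate numbers; the bar beside each group gives mean and SD. Hsd11b1 separates the groups, with CLA values up to 593.6 and control values from 1035, and the groups overlap in the other 8 panels.

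White adipocyte transcripts were lower along with Hsd11b1. Of 20 listed white adipocyte markers 16 were tested, and all 16 had a negative log2 difference, with a median of -1.17 beside 0.03 over all genes tested. The adipocyte differences ran from -2.14 to -0.38, and 7 of the 16 were more negative than that of Hsd11b1. When the mean log2 signal of these 16 genes was subtracted on each array, Hsd11b1 stood at -0.80, -0.81, -0.90 and -1.23 in CLA glands, against -0.87, -0.98 and -0.80 in control glands. These relative values overlapped between the diets, with means of -0.93 ± 0.20 (SD, n = 4) in CLA glands and -0.88 ± 0.09 (SD, n = 3) in control glands. The difference of the relative values was -0.05, while the adipocyte mean itself differed by -1.28. With the white adipocyte score (the mean of log2 signal minus each gene's own mean) as a covariate, the Hsd11b1 log2 difference was -0.55 ± 0.29 (SE). Within a diet this score varied most through CLA replicate 4, so every fit that holds it leans on that array. With the skeletal muscle score as a covariate instead the Hsd11b1 log2 difference was -1.40 ± 0.31 (SE). Brown adipocyte transcripts also differed, with a median of -1.94 over 7 tested markers and summed signals of 954.3 to 5068 in CLA glands, against 3547 to 17010 in control glands. With the brown adipocyte score as a covariate the Hsd11b1 log2 difference was -0.95 ± 0.30 (SE). The part of adipocyte content in the Hsd11b1 difference was not tested further.

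Within the CLA group, Hsd11b1 and the adipocyte transcripts were high on the same array. CLA replicate 4 had an adipocyte score of 0.23, with -0.90 to -0.76 on CLA replicates 1 to 3 and 0.60 to 0.90 on control arrays. Adipoq, which encodes the adipocyte hormone adiponectin, had 1807, 900.6, 1547 and 6936 in CLA glands, against 8542, 7924 and 5486 in control glands. Thus Adipoq on CLA replicate 4 lay inside the control range, while Hsd11b1 on that array did not. Fabp4, the fatty acid binding protein of adipocytes, had 10140, 8171, 11120 and 19320 in CLA glands, against 29220, 31240 and 25090 in control glands. After each diet's mean was subtracted, Pearson's r with Hsd11b1 over the 7 arrays ran from 0.35 for the lipase gene Pnpla2 to 0.96 for Adipoq over the 16 markers, a description of arrays that share CLA replicate 4 as the far point. It was 0.95 for Fabp4, 0.41 for Lep, which encodes leptin, 0.41 for Cebpa and 0.36 for Lgals12. Adipoq, Fabp4 and these examples were chosen after their values were seen.

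**Figure D2:**
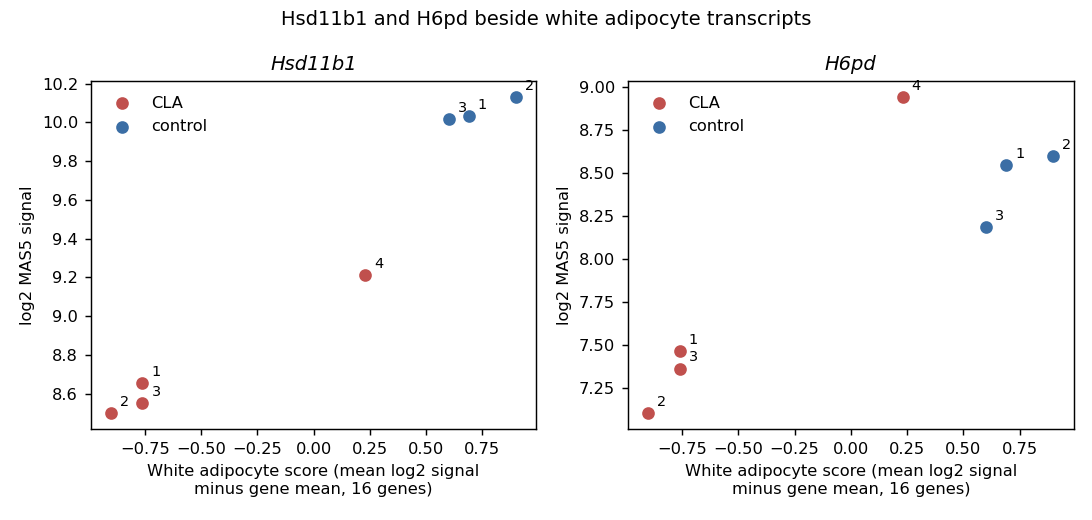
Log2 MAS5 signal of Hsd11b1 (left) and H6pd (right) against the white adipocyte score of each array (log2 signal centred per gene, averaged over 16 genes); CLA arrays in red and control arrays in blue, with replicate numbers. Hsd11b1 climbs with the score over both diets, and H6pd on CLA replicate 4 lies above all control arrays at a score of 0.23.

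H6pd, which supplies NADPH to 11β-HSD1, was low on 3 CLA arrays and at its highest on the fourth. Its signal was 176.4, 137.4, 164.6 and 492.2 in CLA glands, against 374, 387.5 and 290.9 in control glands. CLA replicate 4 lay above all control arrays and CLA replicates 1 to 3 below them. The mean was 243 ± 167 (SD, n = 4) in CLA glands and 351 ± 52.3 (SD, n = 3) in control glands. The log2 difference of -0.73 ± 0.40 (SE) did not pass, with limma's adjusted p of 0.931 over all genes. Without CLA replicate 4 it was -1.13, again not called, with limma's adjusted p of 0.184. Relative to the adipocyte mean, H6pd was at -1.99, -2.21, -2.09 and -1.50 in CLA glands, against -2.36, -2.51 and -2.63 in control glands. Every CLA array was then above every control array, by 0.55 on the log2 scale. Since the adipocyte mean itself was different by -1.28, this order was common: it held for 71.1% of all genes, and for 3 of the 9 members, H6pd, Hsd11b2 and Fkbp5. By the same measure Zbtb16 was 0.55 and Tsc22d3 0.71 higher with CLA, with overlapping groups. With the adipocyte score as a covariate the log2 difference of H6pd was 1.27 ± 0.37 (SE), and it was not called there, with limma's adjusted p of 0.837. This value leans on CLA replicate 4, where the score and H6pd were both the highest of the CLA arrays.

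Hsd11b2, the inactivating enzyme, did not separate the diets. Its signal was 88.03, 88.87, 122.4 and 102.1 in CLA glands, against 77.59, 105.6 and 101.9 in control glands. All values lay near the signal of 57.7 below which genes were not tested, so background may form part of them. The log2 difference was 0.08 ± 0.27 (SE), 95% interval -0.53 to 0.68, with limma's adjusted p of 0.997.

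Across all genes limma called 0 of 12497 (0%) at an adjusted p under 0.05, and accordingly 0 of the 9 members. Without adjustment, a limma p under 0.05 was reached by 298 genes that were higher with CLA and by 376 that were lower, 5.39% in all. Of the 8 members other than Hsd11b1, 1 was in that set, Zbtb16. The median log2 difference was -0.12 over the 9 genes, Hsd11b1 included, and 0.03 over all genes tested.

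The receptors had similar ranges under both diets. Nr3c1, the glucocorticoid receptor, had 2676, 1873, 1572 and 1290 in CLA glands, against 2586, 1533 and 1829 in control glands. Its highest value in each group came from the array with a title number starting with 27, CLA replicate 1 and control replicate 1. The log2 difference was -0.12 ± 0.26 (SE), 95% interval -0.70 to 0.47, with limma's adjusted p of 0.997. Nr3c2, the mineralocorticoid receptor, had 243.5, 246, 332.5 and 154.7 in CLA glands, against 210.5, 318.3 and 225.1 in control glands. The CLA values of Nr3c2 bracketed the control values. Its log2 difference was -0.07 ± 0.28 (SE), 95% interval -0.70 to 0.57, with limma's adjusted p of 0.997. These intervals leave room for a change in either direction.

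Among the target genes, Zbtb16 had the largest difference. Zbtb16, a zinc finger transcription factor (PLZF) known for strong induction by glucocorticoid, had 241.1, 356.7, 387.7 and 272.2 in CLA glands, against 368.8, 703.8 and 511.3 in control glands. The groups overlapped by 1 pair, CLA replicate 3 lying above control replicate 1. The mean was 314 ± 69.1 (SD, n = 4) in CLA glands and 528 ± 168 (SD, n = 3) in control glands, and the geometric mean was 1.65-fold lower with CLA. The log2 difference was -0.73 ± 0.26 (SE), 95% interval -1.31 to -0.14, and it did not pass over all genes, with limma's adjusted p of 0.834. Between the pair of arrays numbered 27 it was -0.61, and among the arrays numbered 28 it was -0.84. With control replicate 2 left out, the array with the most muscle signal, it was -0.49, and in a fit that held the skeletal muscle score it was -0.62 ± 0.41 (SE).

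Tsc22d3, which encodes the anti-inflammatory leucine zipper protein GILZ, had 1253, 1031, 2623 and 1243 in CLA glands, against 1317, 3418 and 2118 in control glands. CLA replicate 3 stood far above the other CLA arrays and inside the control range. The log2 difference was -0.57 ± 0.37 (SE), 95% interval -1.40 to 0.26, with limma's adjusted p of 0.938. Between the pair numbered 27 it was -0.07, among the arrays numbered 28 it was -0.84, and with control replicate 2 left out it was -0.22. In a fit that held the skeletal muscle score it was 0.03 ± 0.51 (SE). The part of muscle content in these values was not tested further.

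Fkbp5 and Sgk1 did not separate the diets. Fkbp5, a co-chaperone that lowers the receptor's affinity for hormone, had 1044, 1363, 1623 and 1304 in CLA glands, against 954.6, 1503 and 1163 in control glands. Its log2 difference was 0.15 ± 0.20 (SE), 95% interval -0.30 to 0.60, with limma's adjusted p of 0.997. Sgk1, a kinase that activates the epithelial sodium channel and is induced by both receptors, had 4622, 4449, 5067 and 3062 in CLA glands, against 4931, 4099 and 3910 in control glands. CLA replicate 4 had the lowest Sgk1 signal of all arrays, and the other CLA values reached from within the control range to just above it. The log2 difference of Sgk1 was -0.02 ± 0.18 (SE), 95% interval -0.43 to 0.39, with limma's adjusted p of 0.999. With the adipocyte score as a covariate it was -0.72, and those of Nr3c1 and Nr3c2 were -0.91 and -0.84. None of these differences was called. They lean on CLA replicate 4, whose score of 0.23 lay far from those of the other CLA arrays (-0.90 to -0.76). That array was also the lowest of all arrays for Sgk1, Nr3c1 and Nr3c2, so the values do not separate diet from this array.

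Probe sets of the same gene did not always share a sign. Of the 6 probe sets of Nr3c1, 1421867_at stood for the gene, 1460303_at had a log2 difference of -0.25 ± 0.15 (SE) and 1457635_s_at one of -0.35 ± 0.30. Probe set 1421866_at had 0.48 ± 0.70 and 1453860_s_at had -0.25 ± 0.38. The sixth, 1431378_at, lay below the filter at 0.86 ± 0.78. The Nr3c1 probe sets thus lay on both sides of 0, each within 2 SE.

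The 3 other probe sets of Tsc22d3 had the same sign as its brightest, at -0.37 ± 0.20 (SE) for 1425281_a_at, -0.09 ± 0.20 for 1425557_x_at and -0.95 ± 0.47 for 1444365_at, the last below the filter. Zbtb16 likewise had -0.23 ± 0.57 on 1419874_x_at and -1.47 ± 0.83 on 1427638_at, which was below the filter. For Fkbp5 the signs differed, with -0.11 ± 0.22 on 1448231_at and -1.10 ± 1.10 on 1447736_at, which was below the filter. Hsd11b1, Hsd11b2, H6pd, Nr3c2 and Sgk1 had 1 probe set each, so their values have no second measure on the array.

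**Figure D3:**
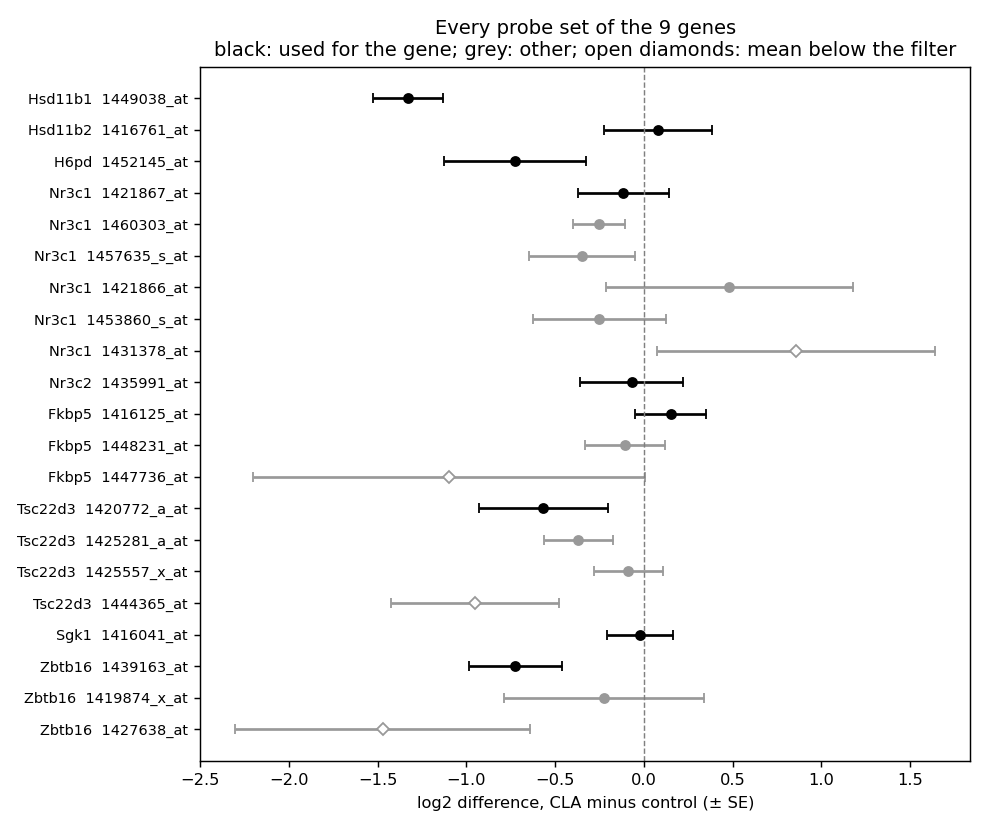
Log2 difference, CLA minus control (x axis), with its SE for all 21 probe sets of the 9 genes; black marks the probe set that stands for a gene, grey the others, and open diamonds those whose mean lies below the filter signal of 57.7. Hsd11b1, selected on its diet difference, is at -1.33, and the probe sets of Nr3c1 and Fkbp5 fall on both sides of 0.

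Some of these probe sets followed the Actb 3′ to 5′ ratio across both diets. This was noticed after the values were seen. Relations with the ratio were computed for 46 probe sets (the 21 of the members and 25 of further targets), each with a two-sided exact permutation test over the 5040 orders of the 7 arrays and Benjamini-Hochberg adjustment over the 46. The members' relations are shown because probe sets of the same gene ran in opposite directions.

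Fkbp5 1416125_at was higher on arrays with a higher ratio, with Pearson's r of 0.84 (exact permutation p = 0.00417, adjusted 0.0639) and Spearman's rho of 0.93 (exact permutation p = 0.00675, adjusted 0.0621). Fkbp5 1448231_at ran the other way, with r of -0.97 (exact permutation p = 0.000794, adjusted 0.0228) and rho of -0.89 (exact permutation p = 0.0123, adjusted 0.0943). Its signal was 668.7, 527.2, 354.8 and 507.4 in CLA glands, against 612.8, 476.8 and 538.5 in control glands. The lowest of these belonged to CLA replicate 3, which had the highest ratio and the highest signal of the other Fkbp5 probe set. Without the 2 arrays farthest from the median ratio, CLA replicate 3 and control replicate 2, r was 0.87 and -0.96. Among the 5 arrays with title numbers starting with 28 it was 0.83 and -0.99.

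Zbtb16 1419874_x_at had 66.34, 115.8, 340.1 and 105.2 in CLA glands, against 77.44, 259 and 169.9 in control glands. Its r with the ratio was 0.89 (exact permutation p = 0.000992, adjusted 0.0228) and its rho 0.96 (exact permutation p = 0.00278, adjusted 0.0426), with r of 0.86 without the 2 farthest arrays and 0.85 within title numbers starting with 28. Zbtb16 1439163_at, which stood for the gene, had r of 0.33 (exact permutation p = 0.439, adjusted 0.730) and rho of 0.68 (exact permutation p = 0.110, adjusted 0.388). Nr3c1 1421866_at had 589.6, 243.9, 114.7 and 324.7 in CLA glands, against 577.6, 66.39 and 189.7 in control glands. Its r was -0.72 (exact permutation p = 0.0508, adjusted 0.389) and its rho -0.93 (exact permutation p = 0.00675, adjusted 0.0621), with r of -0.93 without the 2 farthest arrays and -0.55 within title numbers starting with 28. After adjustment 2 of the 46 relations passed by r and 3 by rho. The relation was first noticed in these same values, which the adjustment does not account for.

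For Hsd11b1, r with the ratio was -0.28 (exact permutation p = 0.661, adjusted 0.868) and rho was -0.14 (exact permutation p = 0.783, adjusted 0.942). Across all genes, rho with the ratio was at or above 0.9 in 1.28% and at or below -0.9 in 0.976%, each gene with 1 probe set. On that basis 1 of the 9 members, Fkbp5, was at or above 0.9 and 0 were at or below -0.9. With the ratio as a covariate, chosen after seeing the data, the log2 difference was -1.31 for Hsd11b1, -0.83 for Zbtb16 and -0.76 for Tsc22d3, and none was called.

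**Figure D4:**
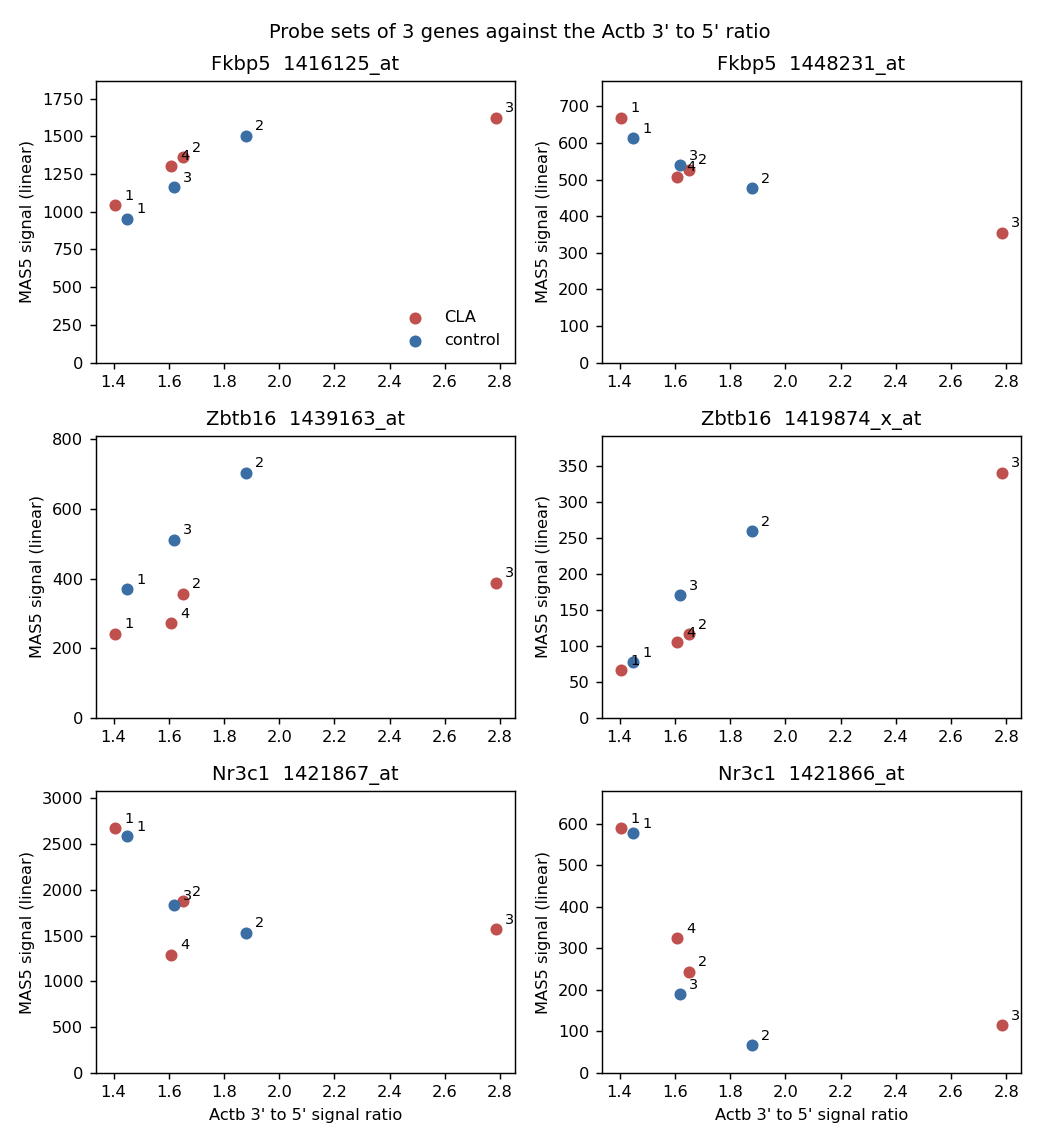
MAS5 signal (linear, y axis from 0) of 6 probe sets against the 3′ to 5′ signal ratio of Actb on each array; CLA arrays in red and control arrays in blue, with replicate numbers. On the left are the probe sets that stand for Fkbp5, Zbtb16 and Nr3c1 and on the right another of each gene. Fkbp5 climbs with the ratio on the left, up to 1623, and falls on the right, down to 354.8, with arrays of both diets along the same course.

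Some members, like many other genes on these arrays, were ordered by title number. Hsd11b2 and Fkbp5 were lower on both arrays with a number starting with 27 than on all 5 arrays starting with 28, an order found in 12.7% of all genes. Nr3c1 was higher on both, an order found in 8.74%. Both arrays with numbers starting with 27 also had the lowest Actb ratios, 1.41 on CLA replicate 1 and 1.45 on control replicate 1, so over the 7 arrays the title number and the ratio run together. Among the 5 arrays numbered 28 alone, Pearson's r with the ratio was 0.83 for Fkbp5 1416125_at, 0.85 for Hsd11b2 and -0.10 for the Nr3c1 probe set that stood for the gene.

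Further targets of the glucocorticoid receptor mostly had negative differences, and none was called. Of 27 listed genes, some of them known from earlier results of these data, 25 were tested, 19 with a negative and 6 with a positive log2 difference, and 0 were called in either direction. Their median was -0.16, beside 0.03 over all genes. It was -0.06 with the white adipocyte score as a covariate, -0.05 without control replicate 2 and -0.27 with title numbers starting with 28 alone. At an unadjusted limma p under 0.05 there were 6 lower and 1 higher, where 5.39% of all genes passed in either direction. In 2 of the 25 all CLA arrays lay below all control arrays, where 2.67% of all genes did.

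Pdk4, a kinase that restrains glucose oxidation and is abundant in muscle and fat, had 76.24, 132.7, 129.9 and 389.7 in CLA glands, against 1943, 1941 and 440.4 in control glands. CLA replicate 4 came close to control replicate 3, and the groups did not overlap. Brown adipocyte transcripts had the same low control array, with scores of -1.44, -1.69, -0.98 and 0.34 in CLA glands, against 2.01, 1.91 and -0.14 in control glands, and their part in the Pdk4 difference was not tested. Its log2 difference was -2.98 ± 0.62 (SE), with limma's adjusted p of 0.423. Cd163, a scavenger receptor of macrophages that takes up haemoglobin, had 87.07, 119, 149.8 and 123.7 in CLA glands, against 253.9, 222.4 and 262.2 in control glands. These groups were also apart, by -1.06 ± 0.25 (SE) on the log2 scale, with limma's adjusted p of 0.576. Macrophage transcripts as a list summed to 28250 to 36280 in CLA glands and 27700 to 36110 in control glands, so their sums covered almost the same range. Of the 12 markers 9 had a positive and 3 a negative log2 difference, with a median of 0.19 beside 0.03 over all genes. Glul, glutamine synthetase, had 1082, 1089, 2045 and 2102 in CLA glands, against 2842, 3850 and 1861 in control glands, with a log2 difference of -0.86 ± 0.32 (SE) and limma's adjusted p of 0.855.

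The following targets were named after their values were seen, and they cover small and larger differences. Angptl4, an inhibitor of lipoprotein lipase, had a log2 difference of -0.71 ± 0.26 (SE), Lpin1, a phosphatidate phosphatase of fat synthesis, -0.82 ± 0.30, and Cdkn1a, an inhibitor of cell cycle kinases, -0.80 ± 0.35. These 3 were among the 6 lower genes at an unadjusted p under 0.05, and limma's adjusted p ran from 0.855 to 0.905. Dusp1, a phosphatase of MAP kinases, had a log2 difference of -0.07 ± 0.16 (SE), Klf9, a Krüppel-like transcription factor, -0.16 ± 0.20, and Nfkbia, the inhibitor of NF-κB, -0.23 ± 0.15. Per1, a circadian clock gene, had -0.17 ± 0.46. Per1 signal was 450.6, 1035, 1557 and 656.9 in CLA glands, against 479, 1313 and 1286 in control glands, so it varied several-fold within each diet. Its rho with the Actb ratio was 0.96 (exact permutation p = 0.00278, adjusted 0.0426), with r of 0.76 (exact permutation p = 0.0127, adjusted 0.117) and 0.87 without the 2 farthest arrays. Ddit4, an inhibitor of the kinase complex mTORC1, was the 1 target with a positive difference at an unadjusted p under 0.05, at 0.47 ± 0.16 (SE) and limma's adjusted p of 0.762. It had 4989, 4454, 4353 and 3578 in CLA glands, against 3632, 3070 and 2691 in control glands, the groups overlapping by 1 pair.

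**Figure D5:**
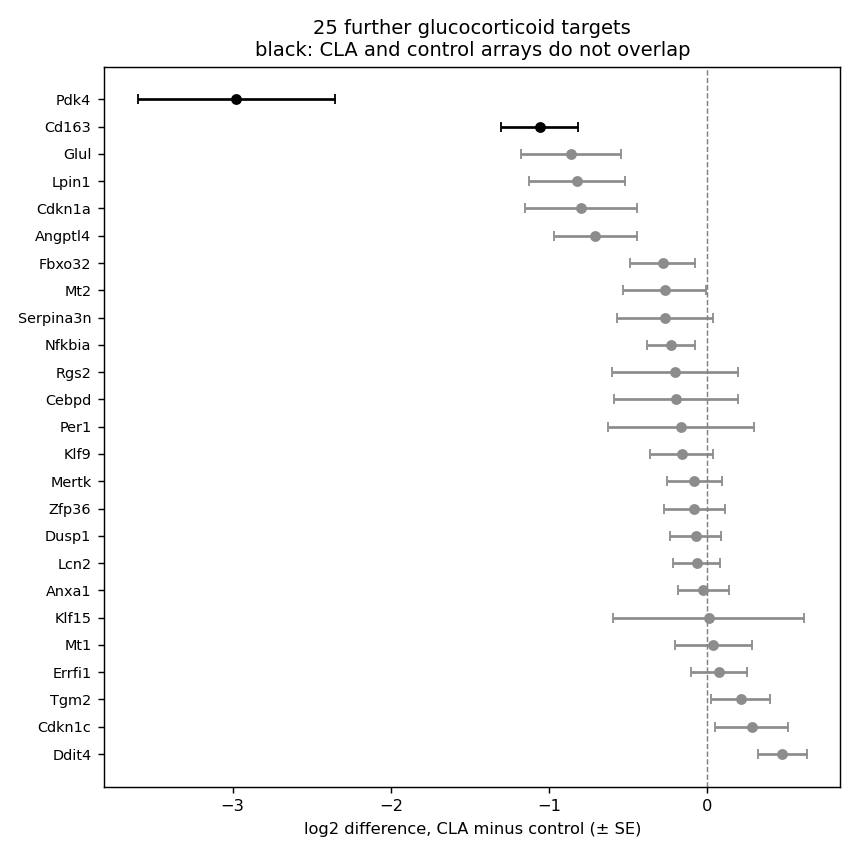
Log2 difference, CLA minus control (x axis), with its SE for the 25 tested genes of the list of further glucocorticoid targets, ordered by value; black marks genes whose CLA and control arrays do not overlap. Pdk4 at -2.98 and Cd163 at -1.06 are the black points, and most others lie within 0.5 of 0.

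Chaperones and coactivators of the receptor had small differences of both signs. All 12 matched of 16 listed were tested, 5 with a positive and 7 with a negative difference, a median of -0.01 and 0 called in either direction. The largest differences were 0.34 ± 0.16 (SE) for Stub1, a ubiquitin ligase that works with chaperones, -0.30 ± 0.20 for Ncoa3, a nuclear receptor coactivator, and 0.27 ± 0.15 for Fkbp4, the co-chaperone that competes with Fkbp5 for the receptor complex. Of 12 listed genes of steroid synthesis, transport and breakdown 10 were matched and 5 tested, with a median of -0.02 and 0 called. The median was 0.42 with the white adipocyte score as a covariate, -0.22 when a gene's probe sets were averaged, and -0.17 without CLA replicate 4. Srd5a3, named a steroid reductase and needed for dolichol synthesis, had -0.21 ± 0.16, Cyp21a1, the steroid 21-hydroxylase, -0.20 ± 0.28, and Abcb1a, a membrane pump that exports steroids, 0.06 ± 0.36. Serpina6, the corticosteroid carrier of blood, and the adrenal enzymes Cyp11a1 and Cyp11b1 were among the 5 below the filter.

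Targets of the mineralocorticoid receptor included 1 gene whose groups were apart. Of 11 listed genes 10 were tested, 9 with a negative and 1 with a positive difference, and 0 were called. Their median was -0.19, beside 0.03 over all genes. This median was -0.51 with the muscle score as a covariate and -0.10 without control replicate 3. Ndrg2, induced by aldosterone in kidney and also expressed in fat and muscle, had 216.7, 176.8, 253.8 and 258 in CLA glands, against 524.6, 848.1 and 370.5 in control glands. All of its CLA values lay below its control values, an order found in 2.67% of all genes. Its log2 difference was -1.29 ± 0.28 (SE), with limma's adjusted p of 0.467. Scnn1g, a subunit of the epithelial sodium channel, had -0.31 ± 0.33 (SE) and Sgk3, a kinase related to Sgk1, -0.25 ± 0.26.

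Known regulators of Hsd11b1 transcription, 6 tested of 10 listed, had a median of -0.18 and 0 calls. This median was 0.38 with the white adipocyte score as a covariate, -0.41 without control replicate 1 and -0.02 without CLA replicate 1. Pparg and Cebpa belong both to this list and to the genes of that score. The shift with the covariate is therefore partly built in. Pparg, the master regulator of adipocyte differentiation and also one of the adipocyte markers above, had 108.4, 66.96, 92.94 and 248.6 in CLA glands, against 413.6, 357.3 and 233.9 in control glands. CLA replicate 4 was again the high CLA array and overlapped control replicate 3. The log2 difference of Pparg was -1.52 ± 0.42 (SE), with limma's adjusted p of 0.688. Cebpa, a C/EBP factor that activates Hsd11b1, had -0.38 ± 0.23 (SE). Il1b, which encodes the inflammatory cytokine interleukin-1β, had 246.9, 209.6, 166 and 203.3 in CLA glands, against 147, 155.1 and 144.7 in control glands. All CLA arrays lay above all control arrays, by 0.46 ± 0.22 (SE) on the log2 scale, with limma's adjusted p of 0.905. That order was found in 2.64% of all genes.

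The genes whose log2 signal was most like that of Hsd11b1 over the 7 arrays were Dnajb14 (Pearson's r 0.98), Lpl (0.98), Retn (0.98), Tmem182 (0.98) and Orm1 (0.98). They share with it the diet groups, so a gene that differs between the diets has a high r. After each diet's mean was subtracted the closest were Cox7a2 (0.99), Nos3 (0.99), Arpc2 (0.99), Cog1 (0.99) and H6pd (0.98). This second likeness leans on CLA replicate 4, and for H6pd it was 0.78 over the 6 arrays without it. Pairs were computed among the members only. Between the target genes among them, Fkbp5 and Zbtb16 had r of 0.40 over the 7 arrays. After the diet means were subtracted it was 0.96, the highest such value between these member targets. By the latter measure the target Sgk1 had -0.09 with Fkbp5 and 0.03 with Zbtb16. High values were not confined to targets, since Hsd11b2 had 0.915 with Tsc22d3 and 0.84 with Fkbp5. Hsd11b2 and Fkbp5 were also ordered by title number. Their r with the Actb ratio was 0.845 and 0.835 over the 7 arrays, neither passing after adjustment. The part of either in these values was not tested. After the diet means were subtracted Hsd11b1 had r of -0.03 with Fkbp5, -0.08 with Tsc22d3, -0.25 with Zbtb16 and -0.86 with Sgk1. Without CLA replicate 4 the value for Sgk1 was -0.07.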

How the data were processed

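Per the labels, mammary gland RNA of 4 CLA-fed and 3 control mice was labelled with biotin and hybridised to Affymetrix arrays, which hold 45101 probe sets. The deposited values are linear signal intensities made with MAS5, whose version the sources used here do not name. MAS5 itself is named in the submitters' processing notes. Every array had a 2% trimmed mean of 500, so no further scaling was applied. Changes are therefore relative to the rest of a gland's transcripts. The labels name the animal's diet and nothing that shows pooling or repeat arrays, so each array was taken as 1 mouse, and replicates were numbered in accession order.

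Signals were floored at 1 before log2. The 64 control probe sets, 932 with several symbols and 9160 without one were left out, and 34741 symbols were updated through the gene identifier in RefSeq's GRCm38.p6 table. Of 18193 genes, 5696 had a mean below the 40th percentile (signal 57.7) and were not tested. The diets were compared by limma 3.58.1 (R 4.3.3; lmFit and trended eBayes, prior degrees of freedom 4.53) in two-sided tests, with Benjamini-Hochberg adjustment over 12497 genes and a threshold of 0.05. Intervals are at 95%. The fit was tested on simulated data with known changes. The number of arrays limits the precision of each value.

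The members and the gene lists were chosen with earlier results of these data known. By rule, named genes were all members with every probe set, of each list the 3 tested genes with the largest difference and those whose groups were apart, and the 5 genes most like Hsd11b1 by each measure. Other list genes given with values were chosen after these were seen. Alternatives were quantile, median and cyclic loess scaling, pseudocounts of 16 and 64, averaged probe sets, no filter or one at the 60th percentile, other eBayes settings, a 0.1 threshold, a block for title numbers, those starting with 28 alone, adipocyte and muscle scores as covariates, and each array left out. A covariate for the Actb ratio was chosen later, after seeing the data. Plots were made in Python 3.11.15 using matplotlib 3.10.9.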

Additional observations from a re-analysis of the deposited data

Results flagged for a closer look

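In 24 genes (the 9 members and the 15 list genes that the naming rule picked) the 4 CLA arrays were checked for 1 array far from the others by Dixon's gap over range. Chance marks about 1 in 20 such groups, and 2 of the 24 were marked. H6pd was 492.2 on CLA replicate 4, with a gap of 0.89 of the range to the nearest other CLA array. Tsc22d3 was 2623 on CLA replicate 3, with a gap of 0.86 of the range. CLA replicate 4 also had the highest white adipocyte score of the CLA arrays, 0.23, and CLA replicate 3 the highest Actb 3′ to 5′ ratio, 2.78. Hsd11b1 on CLA replicate 4, at 593.6, had a gap of 0.82 of the range and was not marked. The 3 control arrays were too few to check.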

How the results depend on the processing

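No paired analysis was possible because the replicates carry only accession-order numbers. Of 381 alternative values, 346 kept their direction and their side of the threshold or stayed within the spread between replicates. Many of them could not change. The filter and eBayes settings leave a gene's log2 difference as it was, and averaging does not move a gene with 1 probe set. No member was called in the main fit, so none could lose a call. The count is therefore no measure of robustness. The number of genes called was 1 with title numbers starting with 28 alone and 0 to 17 with an array left out, 17 without CLA replicate 4 and 2 without control replicate 1. Of the members 0 to 1 were called with an array left out. The 1, without CLA replicate 4, was Hsd11b1, which was selected on this difference, so the count is no test of it. The number of members with separate groups was 2 with title numbers starting with 28 alone and 1 to 3 with an array left out. Hsd11b1 was among them in each case. Zbtb16 joined it with 28 alone or without control replicate 1, Tsc22d3 and Zbtb16 without CLA replicate 3, and H6pd without CLA replicate 4. Groups of fewer arrays separate more readily in any gene, and the share of all genes was not computed for these smaller sets.

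The log2 difference of Hsd11b1 was -0.55 with the white and -0.95 with the brown adipocyte score as a covariate. It was -1.40 to -1.21 under the other alternatives and -1.49 to -1.25 with an array left out. Zbtb16 kept its sign throughout, from -0.96 to -0.49. Other members changed sign. With the adipocyte covariate H6pd was 1.27. As the mean of probe sets Nr3c1 was 0.062 and Fkbp5 -0.35. With the muscle covariate Nr3c1 was 0.073, Nr3c2 0.35, Tsc22d3 0.026 and Sgk1 0.112. Median centring, which moved the median of all genes to 0.11, gave Nr3c2 0.012 and Sgk1 0.059. With title numbers starting with 28 alone Hsd11b2 was -0.002 and Sgk1 0.035. With an array left out, ranges crossed 0 for Hsd11b2 (-0.061 to 0.161), Nr3c1 (-0.311 to 0.093), Nr3c2 (-0.23 to 0.13), Fkbp5 (-0.005 to 0.322) and Sgk1 (-0.11 to 0.13). The cause of these changes was not tested. The median of the further targets ran from -0.27 to -0.05 over all settings. Dim probe sets such as Hsd11b2 limit what can be seen, since background forms more of their signal.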
